A study of Mus musculus with 10 samples.

Results

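Of 36251 accessible regions outside chromosome Y in small intestinal innate lymphoid cells (ILCs), 3672 (10.1%) lay in gene deserts, defined as having no protein-coding gene body of the RefSeq annotation within 50 kb. The rule for members uses position alone, and it was set with earlier results of these data known. Open chromatin was measured by ATAC-seq, which cuts and tags accessible DNA with the transposase Tn5, in 10 libraries, each from 1 mouse or from 2 or 3 pooled mice. All mice were C57BL/6 animals that carried Id2creERT2, a tamoxifen-inducible Cre driven from the Id2 gene, with a tdRFP reporter, and all were fed tamoxifen for several weeks before sorting. RORgt-KO (n = 2) carried the floxed allele that its label names, RORgt-Tbet-KO (n = 2) carried it together with floxed Tbx21, RORgt-RORa-KO (n = 3) carried it together with floxed Rora, and Control (n = 3) carried no floxed allele. Cre in these mice acts in any cell that expresses Id2, so the driver does not restrict deletion to 1 ILC subset. T-bet, encoded by Tbx21, drives type 1 lymphocytes, and RORa, encoded by Rora, is a nuclear receptor needed for ILC2. Tbx21 and Rora bounded no gene desert, and no desert peak was used to check the deletions, which were taken from the labels. Ages of the animals and positions of the loxP sites were not stated there.

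Gene deserts are long stretches without protein-coding genes that often hold distal enhancers, DNA elements that bind transcription factors and act on promoters far away through looping of the chromatin. In lymphocytes, genes of lineage factors and cytokines are known for such distant elements, and their accessibility differs more between cell types than that of promoters. An element need not act on the gene closest to it, so genes are used below only to say where a region lies.

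The sequences below are promoters of long non-coding RNA (lncRNA) genes from RefSeq (GRCm38.p6), each 250 bases before to 50 after the gene's start. They are shown because each lies wholly inside a desert peak whose accessibility differed among the groups. Gm30624 lies at chr10:111684784-111685083 (plus strand, between Phlda1 and Krr1), Gm35155 at chr12:12827800-12828099 (plus strand, between Cyria and Mycn), Gm35891 at chr3:51128890-51129189 (minus strand, between Slc7a11 and Noct) and 4930405D11Rik at chr11:90804441-90804740 (plus strand, between Tom1l1 and Kif2b). Each is written 5′ to 3′ on the gene's strand. Capitals mark a RUNX word (TGTGGTT, or AACCACA on the other strand) or a ROR-type word (TAGGTCA, or TGACCTA on the other strand). The last sequence holds none of the 5 words searched.
Gm30624: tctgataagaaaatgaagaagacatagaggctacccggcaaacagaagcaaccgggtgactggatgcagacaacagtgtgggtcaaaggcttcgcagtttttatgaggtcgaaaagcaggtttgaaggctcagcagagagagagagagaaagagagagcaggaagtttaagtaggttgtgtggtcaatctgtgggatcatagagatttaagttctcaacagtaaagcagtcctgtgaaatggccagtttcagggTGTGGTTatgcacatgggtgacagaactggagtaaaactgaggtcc
Gm35155: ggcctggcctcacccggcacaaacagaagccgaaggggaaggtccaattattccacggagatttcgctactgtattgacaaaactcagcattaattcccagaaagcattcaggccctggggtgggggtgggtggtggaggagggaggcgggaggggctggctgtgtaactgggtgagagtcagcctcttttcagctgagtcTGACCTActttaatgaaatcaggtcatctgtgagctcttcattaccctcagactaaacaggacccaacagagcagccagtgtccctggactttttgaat
Gm35891: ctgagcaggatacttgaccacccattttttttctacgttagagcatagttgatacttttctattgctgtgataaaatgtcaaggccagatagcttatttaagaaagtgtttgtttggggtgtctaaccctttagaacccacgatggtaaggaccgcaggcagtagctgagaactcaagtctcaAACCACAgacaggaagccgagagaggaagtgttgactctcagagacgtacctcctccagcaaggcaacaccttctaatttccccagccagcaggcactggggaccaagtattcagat
4930405D11Rik: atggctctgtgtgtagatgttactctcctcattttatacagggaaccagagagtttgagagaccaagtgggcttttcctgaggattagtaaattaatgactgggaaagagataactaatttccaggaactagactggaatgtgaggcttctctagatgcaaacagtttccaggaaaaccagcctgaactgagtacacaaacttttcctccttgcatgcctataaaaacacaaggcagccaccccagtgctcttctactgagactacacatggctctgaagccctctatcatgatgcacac

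The peak over the Gm30624 promoter averaged 6.18 in RORgt-KO, 6.16 in RORgt-Tbet-KO and 4.90 in RORgt-RORa-KO, against 7.89 in Control, on the authors' log2 scale of scaled reads per peak. It was lower than Control in each knockout, by 2.99 in RORgt-RORa-KO (limma adjusted p = 6.94e-09). The Gm35155 peak, whose window holds the ROR-type word, averaged 5.73, 5.59 and 5.12 in RORgt-KO, in RORgt-Tbet-KO, and in RORgt-RORa-KO, against 7.55 in Control. The Gm35891 peak had another order, with 6.44 in RORgt-KO, 5.27 in RORgt-Tbet-KO and 7.11 in RORgt-RORa-KO, against 5.72 in Control. Among these means the double knockout with Tbx21 was lowest, and it was lower than RORgt-KO by 1.17 (limma adjusted p = 0.0487). The 4930405D11Rik peak averaged 3.78, 2.39 and 3.81 in RORgt-KO, in RORgt-Tbet-KO, and in RORgt-RORa-KO, against 6.19 in Control, and was lower than Control in each knockout.

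In all, 85 such promoter windows of 77 genes overlapped 72 desert peaks by at least 200 of their 300 bases, and 21 of those peaks (29.2%) differed among the groups, against 44.9% of all desert peaks and 30.7% of all peaks. On either strand, the RUNX word was in 20 windows (23.5%), against 5.27% of all 32851 promoter windows. The AP-1 word TGANTCA was in 18.8%, against 7.81%, and the ROR-type word in 5 windows (5.88%), against 2.61%. The T-box word GGTGTGA was in 4.71%, against 3.98%, and the CTCF core word AGGGGGC in 9.41%, against 10.6%. The set of all promoter windows was not limited to accessible regions or to lncRNA genes. Some of the 85 windows overlapped each other, so the same word could be counted more than once. Whether these words are more frequent than in other accessible promoters or other lncRNA promoters was not tested. A match describes the letters in the window and does not show that a factor binds there.

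The desert peaks fell into 1040 gene-free intervals, of which 417 held 1 peak and 72 held 10 or more. Their median distance to the nearest protein-coding gene was 119893 bp. The first peak inside the limit lay 50032 bp from a gene and the last outside it 49975 bp. The 55 peaks at 50 to 51 kb had a median Control level of 5.64, and the 53 peaks at 49 to 50 kb one of 5.67. Of the desert peaks, 2602 (70.9%) overlapped no annotated gene of any kind, 937 overlapped an lncRNA gene, 51 a pseudogene, 47 an antigen receptor V segment and 3 a microRNA. Their median length was 388.5 bp, against 495 bp for peaks within 50 kb of a gene and 386 bp for intergenic peaks at 1 to 50 kb.

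The median level of desert peaks was below that of peaks within 50 kb of a gene in all groups, and in Control it was close to that of the intergenic peaks among them. The desert median was 5.13 in RORgt-KO, 5.0 in RORgt-Tbet-KO, 5.14 in RORgt-RORa-KO and 5.47 in Control, against 5.99, 6.02, 6.04 and 6.01 for peaks within 50 kb of a gene and 5.40, 5.38, 5.47 and 5.49 for the 7572 intergenic peaks at 1 to 50 kb. Per library, the desert median was 5.14 and 5.17 in RORgt-KO, 5.04 and 5.03 in the RORgt-Tbet-KO libraries, 5.19, 5.40 and 4.89 in RORgt-RORa-KO, and 5.50, 5.62 and 5.38 in Control. RORgt-KO and RORgt-Tbet-KO libraries all lay below the Control libraries, while RORgt-RORa-KO replicate 2 lay above Control replicate 3. Reads in peaks ranged from 2271585 to 5047436 per library, and the median desert peak held 23 to 39 reads. With all libraries thinned to the smallest one, the desert medians were 5.16 and 5.23 in RORgt-KO, 5.04 and 5.08 in the RORgt-Tbet-KO libraries, 5.18, 5.33 and 4.96 in RORgt-RORa-KO, and 5.50, 5.56 and 5.35 in Control.

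**Figure D1:**
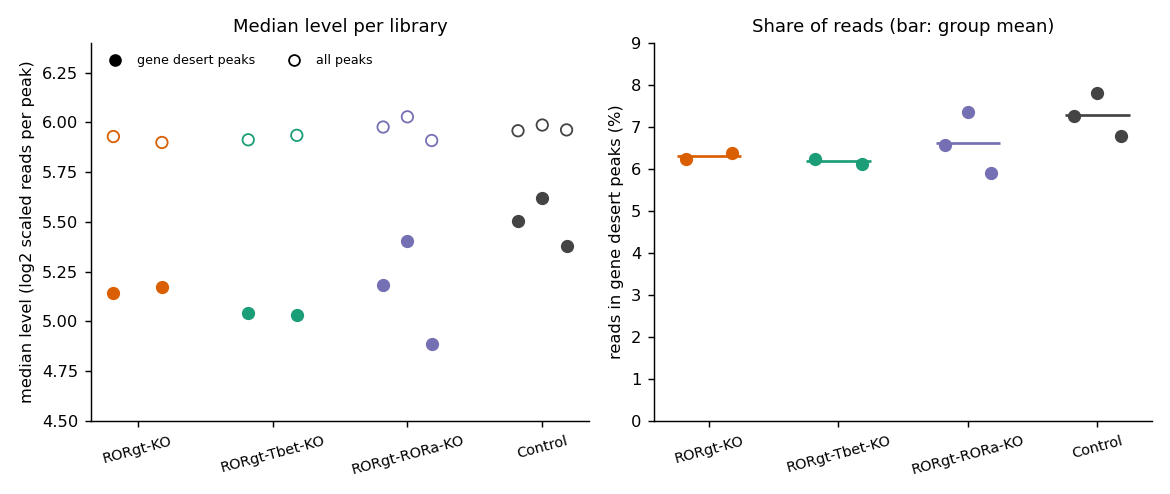
Left, median level per library of gene desert peaks (filled) and of all peaks (open), in log2 scaled reads per peak on an axis that does not start at 0. Right, reads in desert peaks as a percentage of reads in peaks, with group means as bars; the shares were 6.24% and 6.37% in RORgt-KO, 6.24% and 6.11% in the RORgt-Tbet-KO libraries, 6.57%, 7.36% and 5.90% in RORgt-RORa-KO, and 7.26%, 7.80% and 6.79% in Control.

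The 5 desert peaks of highest level in Control included chr2:98665021-98665238 between Lrrc4c and Iftap, with 11.30 ± 0.03 in RORgt-KO, 10.52 ± 0.09 in RORgt-Tbet-KO, 11.26 ± 0.41 in RORgt-RORa-KO and 11.03 ± 0.52 in Control (SD, n = 2, 2, 3 and 3). None of its differences from Control passed the test. Whether reads at such high peaks come from repeated sequence was not tested. The next, chr14:106026797-106027959 between Spry2 and Trim52, averaged 10.36, 10.50 and 10.47 in RORgt-KO, in RORgt-Tbet-KO, and in RORgt-RORa-KO, against 10.29 in Control. Over the 3672 peaks, Pearson correlations between libraries of 1 group were 0.858 to 0.933. RORgt-RORa-KO libraries correlated with Control libraries at 0.573 to 0.682, and RORgt-KO and RORgt-Tbet-KO libraries with Control at 0.694 to 0.792. These are descriptions across peaks, which share each library's depth.

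Against Control, desert peaks changed in all 3 knockouts and more were lower than higher. In RORgt-KO 750 desert peaks (20.4%) changed at an adjusted p under 0.05 (limma, Benjamini-Hochberg over all peaks), against 12.3% of all peaks. Of these, 194 were higher and 556 lower, against 5.19% higher and 7.12% lower over all peaks. In RORgt-Tbet-KO 1140 (31.0%) changed, against 22.6% of all peaks, 315 higher and 825 lower (all peaks 11.3% in each direction). In RORgt-RORa-KO 1558 (42.4%) changed, against 31.2%, 537 higher and 1021 lower (all peaks 15.1% and 16.1%). RORgt-RORa-KO has 3 libraries and the other knockouts 2 each, so these counts do not rank the knockouts. The moderated F test over the 4 groups called 1647 desert peaks (44.9%), against 30.7% of all peaks. In bulk samples, fewer cells of a type and less open chromatin per cell cannot be told apart.

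The share of changed desert peaks that were lower was above that of all peaks as deposited, and most changed desert peaks were also lower under both planned scalings. As deposited, it was 74.1% in RORgt-KO, 72.4% in RORgt-Tbet-KO and 65.5% in RORgt-RORa-KO, against 57.8%, 50.02% and 51.5% over all peaks. It was 71.0%, 69.0% and 63.5% after quantile normalization and 70.0%, 70.0% and 65.8% after median centring. With libraries centred on the median of the desert peaks themselves, which moved the median difference of all peaks to between 0.36 and 0.47 in the 3 knockouts and was chosen after seeing the data, the splits were 352 higher and 305 lower in RORgt-KO, with 650 and 496 in RORgt-Tbet-KO and with 868 and 744 in RORgt-RORa-KO. That centring removes by construction any shift shared by the desert peaks, so the surplus of lower calls is relative to the other peaks. As deposited, the median log2 difference of desert peaks was -0.18, -0.30 and -0.16 in the 3 knockouts, against 0.02, 0.01 and 0.02 over all peaks. Without RORgt-KO replicate 1 or 2 the count in RORgt-KO was 338 or 383, and without RORgt-Tbet-KO replicate 1 or 2 the count in RORgt-Tbet-KO was 559 or 601. Without Control replicate 2, 61.7% of the calls in RORgt-KO were lower.

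**Figure D2:**
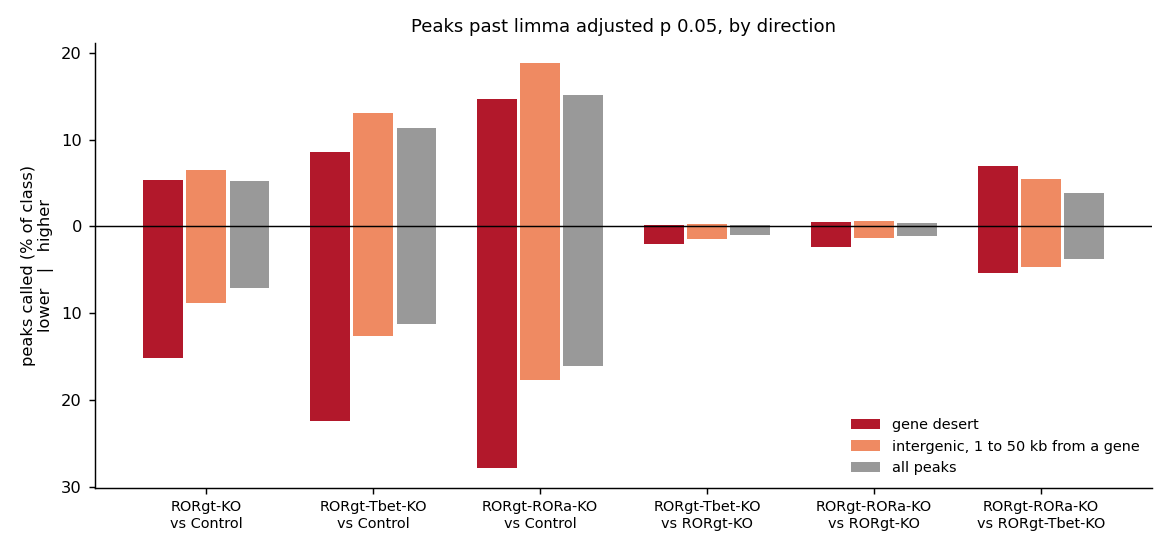
Percentage of peaks past adjusted p 0.05 (limma) in each comparison, higher above and lower below the 0 line, for gene desert peaks, peaks between genes at 1 to 50 kb from a gene, and all peaks. Desert peaks have the longest lower bars in the comparisons with Control, for example 27.8% in RORgt-RORa-KO, against 17.7% of the nearer intergenic peaks.

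Lower calls were also more frequent among desert peaks than among peaks of like level near genes. In the lowest quartile of mean level over all peaks, 13.7%, 24.5% and 27.4% of desert peaks were lower in RORgt-KO, in RORgt-Tbet-KO, and in RORgt-RORa-KO, against 8.01%, 14.1% and 16.4% of peaks within 50 kb of a gene. In the highest quartile the shares were 11.2%, 14.0% and 24.8%, against 3.31%, 7.19% and 14.0% within 50 kb and 7.96%, 9.01% and 18% among intergenic peaks at 1 to 50 kb. In that quartile more desert peaks were higher than lower in RORgt-Tbet-KO, 18.5% against 14.0%, with a median difference of 0.02. With distance, the median difference in RORgt-Tbet-KO was -0.18 for the 1524 peaks at 50 to 100 kb, -0.28 for 1192 at 100 to 200 kb, -0.51 for 719 at 200 to 500 kb and -0.52 for 237 beyond 500 kb. The share called by the F test was 41.1%, 46.6%, 49.7% and 45.1% over the same bins. Peaks that overlapped an lncRNA gene were called in 43.2% of cases and peaks over no annotated gene in 46.1%, while 8 of 47 peaks over V segments were called.

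Several of the largest losses were shared by the 3 knockouts. At chr10:37625903-37626526, between Marcks and Rfpl4b, the level was 4.19 and 4.24 in RORgt-KO, 4.23 and 4.07 in the RORgt-Tbet-KO libraries, 5.07, 4.4 and 4.24 in RORgt-RORa-KO, and 7.84, 7.99 and 7.71 in Control. No knockout library came near a Control library, and the differences were -3.63 (SE 0.33), -3.70 (SE 0.33) and -3.28 (SE 0.30). At chr4:13210799-13211326, between Triqk and Runx1t1, the level was 4.45 and 2.65 in RORgt-KO, 3.82 and 4.33 in the RORgt-Tbet-KO libraries, 2.48, 4.52 and 3.84 in RORgt-RORa-KO, and 7.99, 8.20 and 7.33 in Control. Its fall by 4.29 in RORgt-KO (SE 0.51, limma adjusted p = 1.69e-06) was the largest among the named peaks of that comparison, with 18 and 4 reads in RORgt-KO and 197, 227 and 101 in Control. The peak at chr14:45979046-45979589, between Ddhd1 and Bmp4, a growth factor gene, averaged 4.2, 4.22 and 4.74 in RORgt-KO, in RORgt-Tbet-KO, and in RORgt-RORa-KO, against 7.83 in Control. The peak at chr2:78548661-78549484, 705942 bp from Itga4, averaged 4.99, 4.64 and 4.67 in the same knockouts, against 8.43 in Control.

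Some gains were also shared. At chr10:38884620-38885585, between Rfpl4b and Lama4, the level was 6.79 and 6.80 in RORgt-KO, 7.45 and 7.34 in the RORgt-Tbet-KO libraries, 7.56, 8.0 and 7.74 in RORgt-RORa-KO, and 3.69, 5.07 and 4.68 in Control. All knockout libraries were above all Control libraries, by 2.32 (SE 0.29), 2.91 (SE 0.29) and 3.28 (SE 0.26). On chromosome X, at 99544348 to 99544824 between Pja1 and Tmem28, the level averaged 5.91, 7.02 and 6.83 in RORgt-KO, in RORgt-Tbet-KO, and in RORgt-RORa-KO, against 3.91 in Control. At chr17:15188308-15188554, between Ermard and the Notch ligand gene Dll1, the level was 5.71 and 5.56 in RORgt-KO and 3.23 and 3.55 in the RORgt-Tbet-KO libraries. It was 5.91, 6.03 and 5.97 in RORgt-RORa-KO and 0.22, 1.37 and 4.14 in Control, where the libraries held 0, 2 and 11 reads. Its gain by 4.06 in RORgt-RORa-KO (SE 0.61, limma adjusted p = 7.66e-06) was the largest among the named peaks of that comparison, and the Control libraries spread widely. The RORgt-Tbet-KO libraries lay below the highest Control library there, so at this peak the groups overlapped.

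Lymphocyte genes were mostly far away. For 2792 desert peaks (76.0%) the closest of the 223 listed genes was over 1000 kb away on the same chromosome, and for 135 it was at 50 to 100 kb. The list holds 223 of 21631 protein-coding genes, and members lie over 50 kb from any of these. Long distances therefore follow largely from the list and the rule, and other peaks were not compared. Within 1000 kb, 880 peaks had 126 such genes as the closest, led by Id2, the factor that all ILCs need, with 40 peaks, Vipr2, a neuropeptide receptor, with 28, and Myc, a growth factor-induced regulator, with 26. In RORgt-RORa-KO, 24 peaks were higher and 27 lower among the 135 at 50 to 100 kb, while 392 were higher and 818 lower among those beyond 1000 kb. Changed peaks made up 37.8% and 43.3% of these groups of peaks, against 42.4% of all desert peaks and 31.2% of all peaks. The median differences of these groups were 0.16 and -0.20 in RORgt-RORa-KO, and -0.02 and -0.33 in RORgt-Tbet-KO.

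In all, 68 of the 223 lymphocyte genes bounded a gene desert, and 583 desert peaks lay in their intervals. Of these 583, 34 were higher and 85 lower in RORgt-KO, with 64 and 126 in RORgt-Tbet-KO and with 106 and 132 in RORgt-RORa-KO, with median differences of -0.15, -0.14 and 0.02. As shares of the 583, 5.83% were higher and 14.6% lower in RORgt-KO, near the 5.28% and 15.1% of all desert peaks. In the RORgt-Tbet-KO libraries 10.98% were higher and 21.6% lower, against 8.58% and 22.5% of all desert peaks, and in RORgt-RORa-KO 18.2% and 22.6%, against 14.6% and 27.8%. The 349 peaks bounded by 30 of 60 listed transcription factor genes had 20 higher and 54 lower in RORgt-KO, with 35 and 84 in RORgt-Tbet-KO and with 59 and 78 in RORgt-RORa-KO. As shares of the 349, these counts were near the shares of the 583 peaks in each direction. The 25 peaks at 4 of 25 type 1 and natural cytotoxicity receptor genes had median differences of 0.37, 0.41 and 0.72, with 11 higher and 4 lower in RORgt-RORa-KO; 10 of them lay beside Ifng, and the other 15 had medians of 0.01, -0.04 and 0.44, with 3 higher and 4 lower. The 28 peaks at 4 of 14 type 2 genes had medians of -0.61, -0.73 and -0.50, with 5 higher and 11 lower in RORgt-RORa-KO, but 24 of the 28 lay in the desert beside Gata3. The 44 peaks at 5 of 14 genes of lymphoid tissue inducer (LTi)-like ILC3 had medians of -0.34, -0.34 and -0.32. These depended on single genes. Without the 10 peaks beside Sox4 the medians were -0.08, -0.08 and -0.14, and without the 14 beside Cd83 they were -0.89, -0.87 and -1.14.

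The desert beside Ifng, which encodes the type 1 cytokine interferon gamma, held 10 peaks at 60494 to 358604 bp from it, of which 9 lay between Ifng and Dyrk2. Of the 10, 5 were higher in RORgt-KO, 5 in RORgt-Tbet-KO and 8 in RORgt-RORa-KO, and none passed as lower. The peak at chr10:118633383-118634019, 187489 bp from Ifng, had 6.87 and 6.70 in RORgt-KO, 7.18 and 7.19 in the RORgt-Tbet-KO libraries, 6.75, 7.28 and 6.99 in RORgt-RORa-KO, and 4.28, 5.28 and 5.32 in Control. The knockout libraries lay above all Control libraries, by 1.82 (SE 0.28), 2.22 (SE 0.28) and 2.05 (SE 0.25). Between RORgt-Tbet-KO and RORgt-KO its difference of 0.40 (SE 0.31, limma adjusted p = 0.635) did not pass the test, which does not show that those groups are alike.

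Other deserts had several higher peaks. Among all desert peaks, 5.28%, 8.58% and 14.6% were higher in RORgt-KO, in RORgt-Tbet-KO, and in RORgt-RORa-KO. Cd83, an activation marker, bounded 14 peaks, of which 2, 6 and 6 were higher in RORgt-KO, in RORgt-Tbet-KO, and in RORgt-RORa-KO and 0 lower. Foxp1, a forkhead factor, bounded 4 peaks that were all higher in RORgt-RORa-KO. Runx3, a factor of cytotoxic and type 1 lymphocytes, bounded 3, of which 1, 3 and 2 were higher in the same order; at the one named, chr4:135019046-135019505, the level averaged 6.11, 6.30 and 6.22, against 4.78 in Control. In the 41-peak desert between Id2 and Rnf144a, the peak at chr12:25256307-25256631, 160215 bp from Id2, averaged 5.90 ± 0.12, 6.26 ± 0.01 and 6.13 ± 0.33 in RORgt-KO, in RORgt-Tbet-KO, and in RORgt-RORa-KO, against 4.59 ± 0.21 in Control (SD, n = 2, 2, 3 and 3). Over that desert as a whole, 7 peaks were higher and 7 lower in RORgt-RORa-KO. Between the growth factor receptor genes Kit and Kdr, the peak at chr5:75826261-75826945 averaged 7.51, 8.07 and 7.91 in the 3 knockouts, against 6.66 in Control.

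Other deserts had several lower peaks. Among all desert peaks, 15.1%, 22.5% and 27.8% were lower in RORgt-KO, in RORgt-Tbet-KO, and in RORgt-RORa-KO. The genes named here are only some of the 80 listed genes that bounded a desert. Nfia, a nuclear factor I gene, bounded 9 peaks, of which 5, 9 and 6 were lower in RORgt-KO, in RORgt-Tbet-KO, and in RORgt-RORa-KO. The peak at chr4:97474463-97475359, 102707 bp from Nfia, had 5.19 and 4.74 in RORgt-KO, 5.12 and 5.24 in the RORgt-Tbet-KO libraries, 5.57, 5.28 and 4.80 in RORgt-RORa-KO, and 8.79, 8.86 and 7.90 in Control. The groups did not overlap, and the differences were -3.55 (SE 0.30), -3.33 (SE 0.30) and -3.30 (SE 0.27). Itga4, the integrin chain of gut and mucosal homing, bounded 8 peaks, of which 4, 5 and 5 were lower. Klf6, a zinc finger factor, bounded 29 peaks, of which 10, 10 and 13 were lower and 0, 0 and 2 higher. At chr13:4911826-4912534, 948955 bp from Klf6, the level averaged 5.93 ± 0.35, 6.01 ± 0.19 and 4.72 ± 0.44 in RORgt-KO, in RORgt-Tbet-KO, and in RORgt-RORa-KO, against 8.30 ± 0.54 in Control (SD, n = 2, 2, 3 and 3). There RORgt-RORa-KO was also lower than RORgt-KO, by 1.21 (SE 0.30, limma adjusted p = 0.0337). The semaphorin receptor gene Nrp1 bounded 14 peaks, of which 3, 4 and 6 were lower, and Sox4, an early lymphoid factor, 10, of which 1, 4 and 7 were lower.

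Both desert peaks beside Arg1, the arginase gene that ILC2 express, were lower in each knockout. At chr10:25023558-25024169, 96088 bp from Arg1, the level was 5.57 and 5.61 in RORgt-KO, 5.37 and 4.55 in the RORgt-Tbet-KO libraries, 3.94, 3.82 and 3.84 in RORgt-RORa-KO, and 7.30, 8.06 and 7.35 in Control. The RORgt-RORa-KO libraries were lowest, with a fall by 3.70 against Control (SE 0.29, limma adjusted p = 1.98e-10), by 1.72 against RORgt-KO (adjusted p = 0.00364) and by 1.09 against RORgt-Tbet-KO (adjusted p = 0.0373).

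**Figure D3:**
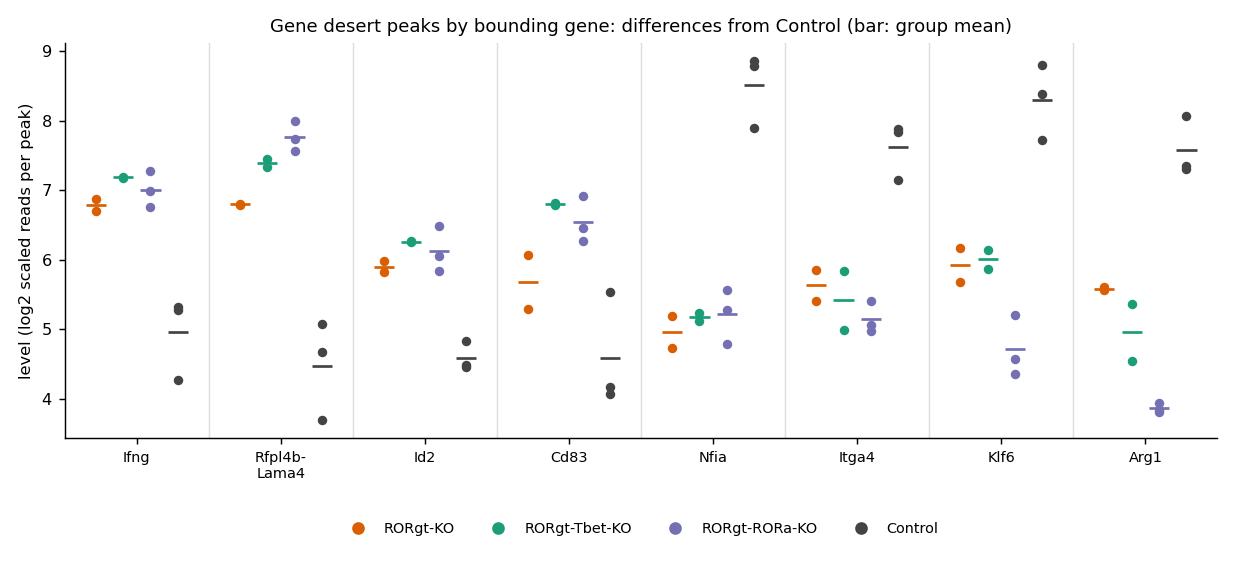
Level in every library (points) and group mean (bars) of 8 gene desert peaks, named by the gene or genes that bound their interval, in log2 scaled reads per peak on an axis that does not start at 0. The 4 peaks at the left are higher in the knockouts than in Control on average and the 4 at the right lower, with Arg1 and Klf6 lowest in RORgt-RORa-KO.

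**Figure D4:**
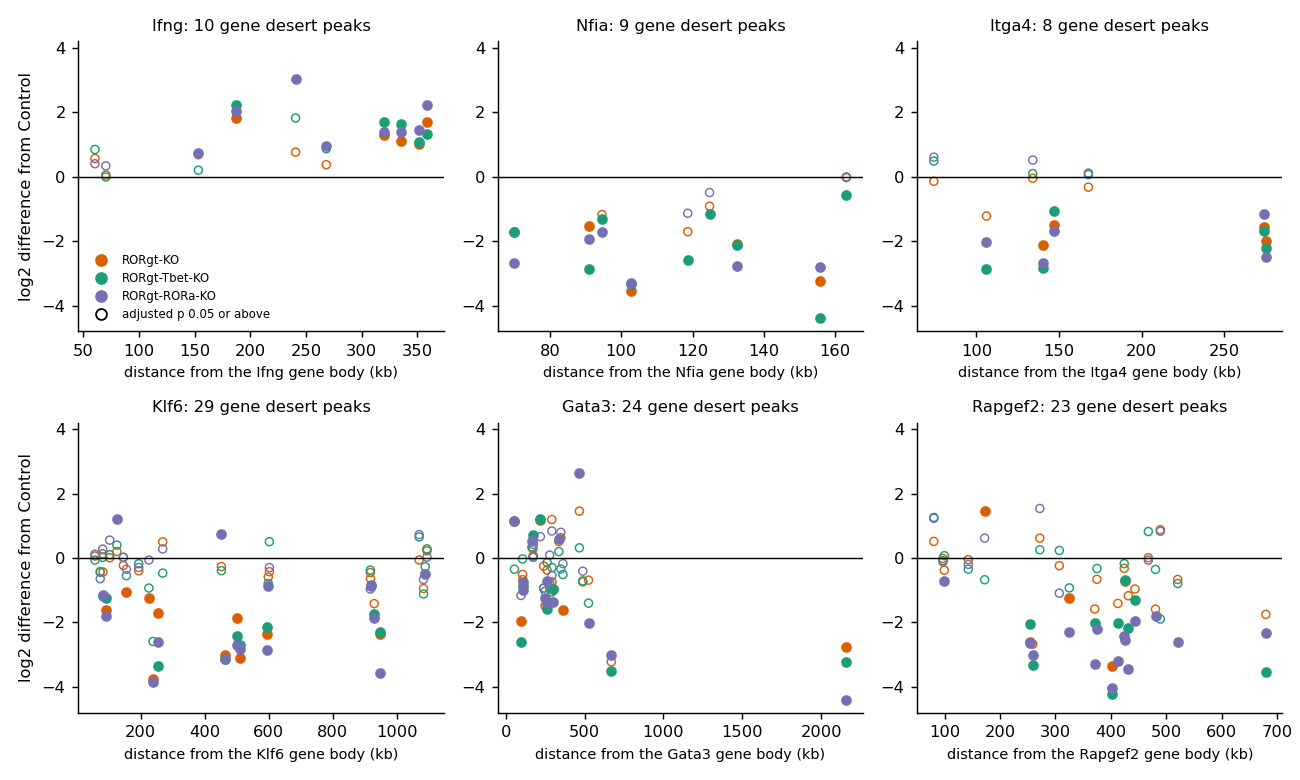
Log2 difference from Control of each desert peak in 6 intervals against its distance in kb from a bounding gene, filled where limma's adjusted p was under 0.05. No filled point lies below 0 at Ifng and none above 0 at Nfia and Itga4, while Gata3 has filled points on both sides.

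Of the 8 deserts with most peaks, the largest was the 49-peak interval between Adam6a and Zfp386, which spans the immunoglobulin heavy chain V segments, not counted as protein-coding genes here. There 6 peaks (12.2%) were called by the F test, against 44.9% of all desert peaks and 30.7% of all peaks, and 5 were lower in RORgt-RORa-KO. Between Nmbr and Cited2, 21 of 28 peaks (75%) were called, and 9, 15 and 14 were lower in RORgt-KO, in RORgt-Tbet-KO, and in RORgt-RORa-KO, against 0, 2 and 4 higher. The 27 peaks between Akr1e1 and Klf6 had 13 called, the 26 between Myc and Gsdmc 14, the 24 between Celf2 and Gata3 13, the 24 between Jun and Fggy 12, the 24 between Irf2bp2 and Tomm20 9, and the 41 beside Id2 16. The last 2 shares, 37.5% and 39.0%, were below that of all desert peaks. Across the Jun desert, which flanks an AP-1 gene, 9, 6 and 10 peaks were lower in the same order of groups, and 0, 2 and 4 higher. The 23-peak desert between Fstl5 and Rapgef2 had 15 peaks lower and 0 higher in RORgt-RORa-KO against Control, with a median difference of -2.21. It was chosen after its values were seen.

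Among antigen receptor loci, of 5 desert peaks over the T cell receptor gamma locus (Tcrg) 1, 4 and 4 were higher in RORgt-KO, in RORgt-Tbet-KO, and in RORgt-RORa-KO, and 0, 0 and 1 lower. At chr13:19272798-19273157 the level was 3.28 and 2.24 in RORgt-KO, 5.08 and 4.87 in the RORgt-Tbet-KO libraries, 5.07, 5.52 and 5.37 in RORgt-RORa-KO, and 1.96, 2.96 and 3.26 in Control. RORgt-RORa-KO was higher than RORgt-KO by 2.56 (SE 0.56, limma adjusted p = 0.0123), a call lost without limma's mean-variance trend, without RORgt-KO replicate 2 or without RORgt-RORa-KO replicate 3. Of 9 peaks over Tcra, 5 were higher and 0 lower in RORgt-RORa-KO, and of 7 over Tcrb 3 were higher and 1 lower, with a median difference of 0.01. The 55 peaks over Igh had 5 higher and 5 lower there, and the 3 over Igk 1 and 1. Over all desert peaks, 5.28%, 8.58% and 14.6% were higher in RORgt-KO, in RORgt-Tbet-KO, and in RORgt-RORa-KO, and 15.1%, 22.5% and 27.8% lower. Over all peaks, 15.1% were higher and 16.1% lower in RORgt-RORa-KO. These loci hold few desert peaks, and the median Control level was 3.62 over Tcra, against 5.47 for all desert peaks. As a whole, 5 of 7 T cell markers had a peak within 1 kb of the gene, and their summed linear level ran from 471 to 473 in RORgt-KO, 550 to 603 in RORgt-Tbet-KO and 608 to 644 in RORgt-RORa-KO, against 465 to 485 in Control. Cd3g and Cd8a had no peak. The part of T cells in these results was not tested.

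Fewer desert peaks were called between knockouts. Library numbers differ among the comparisons. The median SE of desert peaks was 0.42 for RORgt-Tbet-KO against RORgt-KO and 0.35 for RORgt-RORa-KO against Control, so the counts differ in power. Between RORgt-Tbet-KO and RORgt-KO 80 desert peaks changed (2.18%), against 1.14% of all peaks, 6 higher and 74 lower (all peaks 0.179% and 0.965%). The split was 168 higher and 230 lower with these 2 groups fitted alone, and 144 and 276 with library weights. Without 1 library the count was 16 (RORgt-KO replicate 1), 25 (RORgt-KO replicate 2), 27 (RORgt-Tbet-KO replicate 1) or 45 (RORgt-Tbet-KO replicate 2). Peaks near Gata3 and Prdm1 were lower in RORgt-Tbet-KO than in RORgt-KO and higher in RORgt-KO than in Control. At chr2:9801381-9801971, 55107 bp from Gata3, the factor of ILC2 and of ILC development, the level was 8.28 and 7.85 in RORgt-KO, 6.53 and 6.63 in the RORgt-Tbet-KO libraries, 8.04, 8.24 and 7.91 in RORgt-RORa-KO, and 6.64, 7.37 and 6.76 in Control. RORgt-Tbet-KO was lower than RORgt-KO by 1.49 (SE 0.24, limma adjusted p = 0.000636) and differed from Control by -0.35 (SE 0.22, adjusted p = 0.272). At chr10:44821434-44822348, 292876 bp from Prdm1, a factor of effector lymphocytes, the level averaged 8.0, 6.78 and 8.12 in RORgt-KO, in RORgt-Tbet-KO, and in RORgt-RORa-KO, against 6.83 in Control.

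Bach2, a repressor of effector programs, had a peak at chr4:32126696-32127298, 111115 bp away, with 7.07 and 6.43 in RORgt-KO, 4.77 and 5.1 in the RORgt-Tbet-KO libraries, 7.05, 7.21 and 7.13 in RORgt-RORa-KO, and 6.18, 6.25 and 6.10 in Control. The RORgt-Tbet-KO libraries lay below all others, by 1.81 against RORgt-KO (SE 0.28, limma adjusted p = 0.00034). At chr15:10035499-10035941, 505558 bp from Il7r, the interleukin-7 receptor gene of ILCs, the level was 5.45 and 5.90 in RORgt-KO, 2.50 and 3.74 in the RORgt-Tbet-KO libraries, 6.44, 6.57 and 5.65 in RORgt-RORa-KO, and 5.23, 5.62 and 5.14 in Control. RORgt-Tbet-KO was lower than RORgt-KO by 2.56 (SE 0.43, limma adjusted p = 0.000943). This call was lost without limma's mean-variance trend, without RORgt-KO replicate 2 or without RORgt-Tbet-KO replicate 1. At chr10:21479456-21479775, 318472 bp from Myb, a factor of progenitors, the levels averaged 5.74, 2.99 and 5.72 in RORgt-KO, in RORgt-Tbet-KO, and in RORgt-RORa-KO, against 3.39 in Control. The call between RORgt-Tbet-KO and RORgt-KO was lost without the trend and without any 1 of their 4 libraries.

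Between RORgt-RORa-KO and RORgt-KO 103 desert peaks changed (2.81%), against 1.47% of all peaks, 17 higher and 86 lower (all peaks 0.331% and 1.14%). Without RORgt-KO replicate 1 or 2 the count was 46 or 14. At chr2:51507974-51508645, between Rnd3 and Tas2r134, the level was 3.07, 2.82 and 3.43 in RORgt-RORa-KO, 5.24 and 5.56 in RORgt-KO, 5.64 and 6.17 in the RORgt-Tbet-KO libraries, and 6.58, 6.78 and 6.4 in Control. All RORgt-RORa-KO libraries were below the others, by 2.29 against RORgt-KO (SE 0.35, limma adjusted p = 0.000293). At chr8:116304039-116304473, 597145 bp from Maf, a factor of ILC3 and regulatory lymphocytes, the level averaged 4.12 ± 0.41 in RORgt-RORa-KO, 5.78 ± 0.46 in RORgt-KO, 6.32 ± 0.61 in RORgt-Tbet-KO and 6.57 ± 0.23 in Control (SD, n = 3, 2, 2 and 3). In the other direction, chr5:64029516-64030261 between Rell1 and Pgm2 averaged 8.57 in RORgt-RORa-KO, 7.11 in RORgt-KO, 7.58 in RORgt-Tbet-KO and 7.69 in Control.

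Between RORgt-RORa-KO and RORgt-Tbet-KO 454 desert peaks changed (12.4%), against 7.54% of all peaks, 255 higher and 199 lower (all peaks 3.82% and 3.72%). Without RORgt-Tbet-KO replicate 1 or 2 the count was 179 or 204. At chr12:32560709-32561567, between Ccdc71l and Nampt, an NAD synthesis gene, the level was 5.44, 5.07 and 5.37 in RORgt-RORa-KO, 8.03 and 7.78 in RORgt-Tbet-KO, 7.44 and 7.65 in RORgt-KO, and 8.17, 8.02 and 7.56 in Control. RORgt-RORa-KO was lower than RORgt-Tbet-KO by 2.61 (SE 0.22, limma adjusted p = 1.9e-08), while RORgt-KO differed from Control by -0.37 (SE 0.22, adjusted p = 0.325). At chr10:56486431-56486909, between Gja1 and Hsf2, the level averaged 4.09 in RORgt-RORa-KO, 7.25 in RORgt-Tbet-KO, 6.16 in RORgt-KO and 5.40 in Control.

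**Figure D5:**
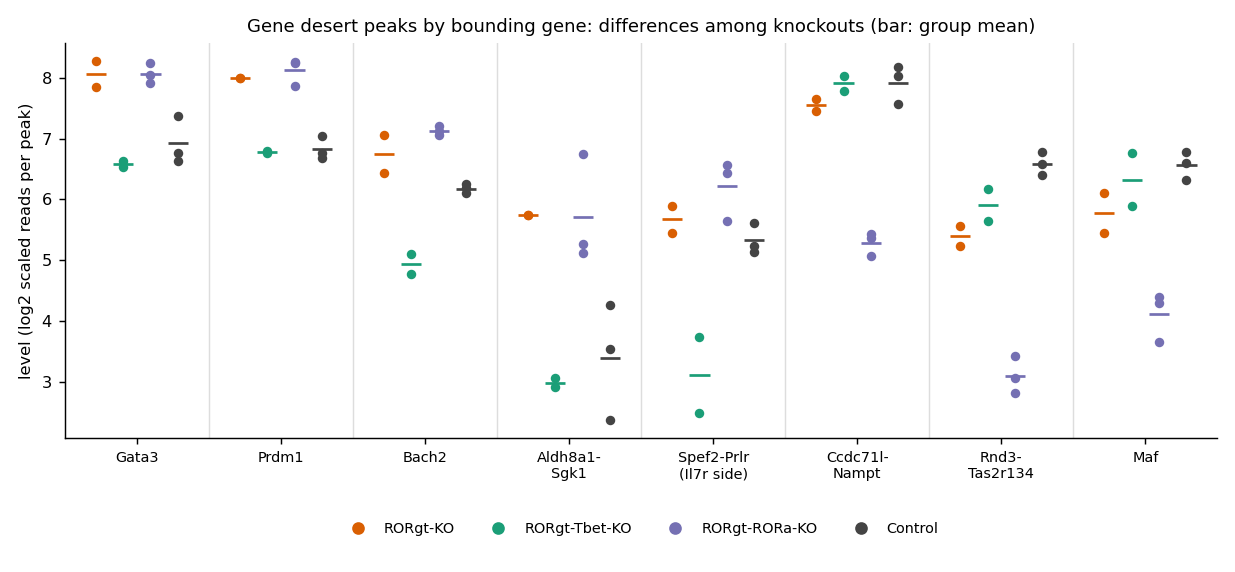
Level in every library (points) and group mean (bars) of 8 gene desert peaks that differed among knockouts, named by the gene or genes that bound their interval, in log2 scaled reads per peak on an axis that does not start at 0. In the 5 peaks at the left RORgt-Tbet-KO has the lowest mean of the 4 groups, and in the 3 at the right RORgt-RORa-KO does.

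Of 10 ILC markers, 9 had a peak within 1 kb, all but Klrb1c, with summed linear levels of 5906 to 6221 in RORgt-KO, 7739 to 7845 in RORgt-Tbet-KO, 5894 to 7392 in RORgt-RORa-KO and 5758 to 6318 in Control. Peaks at the 3 B cell markers that had one summed to 656 to 670 in RORgt-KO, 704 to 825 in RORgt-Tbet-KO and 565 to 652 in RORgt-RORa-KO, against 1041 to 1111.5 in Control, while Cd79a, Cd79b and Ms4a1 had no peak. Peaks at 3 of 6 epithelial markers summed to 697 to 714, 662 to 678 and 644 to 747 in the knockouts, against 462 to 493 in Control, with none at Vil1, Krt8 and Krt20. Myeloid markers had peaks at 2 of 6 (284 to 325, 296 to 318 and 281 to 303, against 221 to 286 in Control), with none at Csf1r, Lyz2, Itgam and Adgre1. Stromal and endothelial markers had peaks at 3 of 5 (848 to 879, 1162 to 1170 and 875 to 983, against 789 to 879 in Control), with none at Col1a1 and Cdh5. The part of other cells in the desert results was not tested.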

How the data were processed

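Gene desert peaks were described from the table of log2 values that the authors deposited, 1 column for each of 10 ATAC-seq libraries and 36262 peaks in GRCm38 coordinates. The tools, per the submitters' processing notes, included Trim Galore 0.62, Bowtie2 2.3.5.1, SAMtools and MACS2; whether peaks were called per library or on pooled reads was not stated there. Raised to the power of 2, all non-empty values were whole multiples of 1 step per library within a tolerance of 0.01, so reads were recovered, and empty peaks held 0.9 of a step. The 11 peaks on Y were left out. No further peak was removed here, so regions of repeated sequence were not filtered. Positions are those of the file, whose counting base is not stated; distances run to gene bodies of RefSeq (GRCm38.p6).

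Groups come from the labels, which call the libraries biological replicates. All 36251 peaks were fitted with limma 3.58.1 (R 4.3.3) on the deposited log2 values, with a mean-variance trend and 4 groups sharing 1 spread (6 residual and 22.5 prior degrees of freedom). The 6 comparisons and a moderated F test, two-sided, were adjusted by the Benjamini-Hochberg method over all peaks at 0.05; differences are on the log2 scale and SE is the moderated standard error. The median SE of desert peaks was 0.35 to 0.42. The procedure was run on simulated reads with the same dispersion for every peak and no variation shared within a library. That setting is simpler than these data, so it does not show how reliable the calls here are. Alternatives covered scaling, trend, filter, added unit, voom on recovered reads, weights, replicate block, distance, annotation and each library left out.

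Named peaks were, per direction, the 8 (against Control) or 5 (between knockouts) with the largest change past the threshold, groups not overlapping, at least 10 reads summed over the lower group and 1 per interval; the F-called peak of smallest p beside each listed gene that bounds a desert; the 8 fullest intervals; and the 5 highest peaks in Control. Only some of them are printed, and results on a few genes are not reported here; the peaks over the 4 promoters shown were chosen after their values were seen. The members and the lists of genes were chosen with earlier results of these data known. No genome sequence was used, so words were searched in RefSeq promoter windows only. Figures were drawn with matplotlib 3.10.9.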

Additional observations from a re-analysis of the deposited data

How the results depend on the processing

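None of the 78 named tests of a comparison changed direction under any alternative run. Their peaks had been chosen for large changes between groups whose libraries did not overlap. Leaving out a library could therefore not reverse them, so the lack of reversals is no evidence of stability. The other 60 named tests were F tests, which have no direction, so only their side of the threshold was followed. Of 2776 repeats of the named peaks' tests, 2631 kept their side of the threshold and 145 lost the call, and 102 of the tests kept it in all repeats run. Leaving out 1 library gave 338 to 860 changed desert peaks in RORgt-KO, 559 to 1287 in RORgt-Tbet-KO and 1305 to 1612 in RORgt-RORa-KO against Control, and 16 to 117 for RORgt-Tbet-KO against RORgt-KO, 14 to 123 for RORgt-RORa-KO against RORgt-KO and 179 to 519 for RORgt-RORa-KO against RORgt-Tbet-KO. Without RORgt-Tbet-KO replicates 1 or 2 or RORgt-KO replicates 1 or 2, 1 sample stands for its group and is assumed to vary like the others. Without the trend these last 3 counts were 20, 12 and 262, with library weights 420, 205 and 909, and centred on the desert median (chosen after seeing the data) the first 2 were 39 and 50; RORgt-Tbet-KO against RORgt-KO alone, with no other group in the fit, gave 398. The cause was not tested. Deserts beyond 100 kb, a smaller set by construction, gave 466, 706 and 940 against Control, 50, 64 and 292 between knockouts and 1020 by the F test; beyond 25 kb, a larger set, RORgt-RORa-KO against Control gave 2345 and RORgt-Tbet-KO against RORgt-KO 121. The labels do not say what replicate numbers mark, and same-numbered libraries deviated together at r = -0.121 to 0.143, so the numbers were not taken as pairs; with a replicate block the counts were 920, 1321 and 1624 against Control and 113, 111 and 542 between knockouts. Thinned to the smallest library (also chosen after seeing the data), 601 and 983 desert peaks changed in RORgt-KO and RORgt-Tbet-KO against Control. Desert peaks held a median of 23 to 39 reads per library, which limits small differences.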
